A study of Mus musculus with 16 samples.

Results

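The regions described here are 19724 accessible regions of mouse B cells that lie between protein-coding genes but not far from them. A peak was a member when its middle lay outside every protein-coding RefSeq gene span, more than 1 kb and at most 50 kb from the nearest span. The members were 24.0% of the 82188 peaks of the table, each 501 bp wide, and the rule used position only, no accessibility value. Their nearest spans belonged to 7545 of 21900 protein-coding genes, at a median distance of 11587.5 bp. A nearest gene is a name for a place: a distal element may act on another gene.

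Accessibility had been measured by Omni-ATAC, in which a transposase cuts open chromatin and leaves sequencing adapters there, so that the number of counts in a region follows how open it is. The 16 libraries came from spleens of C57BL/6 mice aged 8 to 10 weeks and fell into 4 groups of 4: HET CC and WT CC, HET CB and WT CB. HET cells carried the genotype Smarca4+/- and WT cells Smarca4+/+; the design text of the series speaks of a knockout, but the genotype label is that of a heterozygote. The labels do not spell out CB and CC, which are read here as centroblast and centrocyte, nor do they give a sort gate, an immunization, or whether the allele was missing in B cells only. Nothing says that replicates came from separate animals, and a p-value here speaks of how these libraries vary, a variation that may be technical.

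A germinal center is the site in spleen and lymph nodes where B cells mutate their antibody genes and are selected. Centroblasts divide and mutate in its dark zone, and centrocytes are tested for antigen binding in its light zone, from which they return to the dark zone, become memory or plasma cells, or die. Smarca4, also called Brg1, is an ATPase subunit of the BAF complex, which moves and evicts nucleosomes. Enhancers, the elements through which transcription factors raise the output of a gene from a distance, lie largely in introns and between genes, and their accessibility is known to differ between cell types more than that of promoters.

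Some members are themselves the start of a gene that makes no protein. The middle of 3792 members lay within another RefSeq gene, in 3431 of them a long noncoding RNA (lncRNA), and 386 members covered the start of an lncRNA. For 4 such members, chosen because their accessibility differed between HET CC and WT CC and their values are given further on, the window from 250 bases before to 50 bases after the start is printed 5′ to 3′ on the strand of the lncRNA, from RefSeq on GRCm38.p6, the assembly that mm10 denotes. Capitals mark the motifs found on either strand among 7 that were searched and are spelled out with the lncRNA results. The window of Gm52672 is chr4:106904867-106905166 on the plus strand, that of C430042M11Rik chr17:83854369-83854668 on the minus strand, that of Gm33663 chr7:143466449-143466748 on the minus strand and that of Gm9875 chr2:13558653-13558952 on the plus strand.
Gm52672: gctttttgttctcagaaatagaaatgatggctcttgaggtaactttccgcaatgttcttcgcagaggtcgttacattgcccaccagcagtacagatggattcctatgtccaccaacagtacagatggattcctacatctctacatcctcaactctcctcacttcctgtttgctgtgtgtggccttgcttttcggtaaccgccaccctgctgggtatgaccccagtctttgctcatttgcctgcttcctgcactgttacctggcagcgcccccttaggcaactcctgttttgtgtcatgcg
C430042M11Rik: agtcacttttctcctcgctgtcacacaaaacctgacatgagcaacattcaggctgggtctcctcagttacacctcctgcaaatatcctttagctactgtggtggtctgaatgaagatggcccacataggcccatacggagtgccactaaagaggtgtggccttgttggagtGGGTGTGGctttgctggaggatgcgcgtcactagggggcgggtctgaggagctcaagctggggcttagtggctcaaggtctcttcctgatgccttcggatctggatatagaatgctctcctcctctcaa
Gm33663: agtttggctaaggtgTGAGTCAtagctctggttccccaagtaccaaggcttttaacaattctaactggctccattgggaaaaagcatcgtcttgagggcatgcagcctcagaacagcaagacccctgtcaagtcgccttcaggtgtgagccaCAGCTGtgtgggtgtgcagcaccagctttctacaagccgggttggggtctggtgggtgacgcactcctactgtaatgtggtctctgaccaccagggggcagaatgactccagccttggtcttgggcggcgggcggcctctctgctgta
Gm9875: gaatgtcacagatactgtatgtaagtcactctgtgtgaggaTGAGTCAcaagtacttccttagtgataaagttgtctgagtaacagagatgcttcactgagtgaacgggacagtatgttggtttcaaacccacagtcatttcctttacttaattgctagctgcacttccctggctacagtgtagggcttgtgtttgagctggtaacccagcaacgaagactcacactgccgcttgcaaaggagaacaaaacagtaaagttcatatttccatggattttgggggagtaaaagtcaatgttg

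Members also overlapped 11 microRNA hairpins, in 8 peaks. A microRNA is a short RNA that lowers the output of messenger RNAs that match its seed, bases 2 to 8. Shown here are miR-155, known for its part in the germinal center response, and the cluster of miR-23a, miR-27a and miR-24, whose sequences below lie in 1 member peak; the other arm of the miR-23a hairpin lies just outside it. Each is the mature RefSeq sequence, with the seed in capitals, and the 4 seeds differ from each other.
miR-155-5p: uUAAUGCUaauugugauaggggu
miR-23a-3p: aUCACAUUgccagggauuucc
miR-27a-3p: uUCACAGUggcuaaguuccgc
miR-24-3p: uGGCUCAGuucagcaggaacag

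The counts behind the values differed more between CC and CB than between genotypes. Library totals ran from 5310327 to 7474760 counts in HET CC, 3494356 to 3750936 in WT CC, 38716281 to 51011923 in HET CB and 31696941 to 38798802 in WT CB. The median member held 18 to 41 counts in a CC library and 163 to 258 in a CB library, so a single CC value is the less precise. Correlations of log2 values between libraries of a group ran from 0.92 to 0.944 in HET CC, 0.895 to 0.901 in WT CC, 0.991 to 0.994 in HET CB and 0.988 to 0.992 in WT CB. The B cell genes checked (Cd79a, Cd79b, Ms4a1, Pax5, Ebf1) were accessible in every library; the summed CPM around Pax5 was 308 to 365 in HET CC, 332 to 364 in WT CC, 379 to 383 in HET CB and 386 to 420 in WT CB. Peaks around the T cell gene Cd8a summed to 8.84 to 11.3 CPM in HET CC and 6.57 to 15.3 in WT CC, against 0.695 to 1.28 in HET CB and 1.14 to 1.41 in WT CB; the part of other cell types in the results was not tested. In such bulk libraries a larger share of cells with an open region and a more open region per cell cannot be told apart. CPM here are counts relative to the library total after TMM scaling, which sets libraries to a common effective total.

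As a share of all counts in peaks, members held less in CC than in CB. They took 16.42% to 16.62% of the counts in HET CC and 16.86% to 17.12% in HET CB, and 16.09% to 16.42% in WT CC and 17.08% to 17.22% in WT CB. CC and CB libraries did not overlap in either genotype, while HET and WT libraries of the same cell type touched or overlapped. Peaks within 1 kb of a gene end moved the other way, with 44.3% to 44.89% in HET CC and 42.01% to 42.77% in HET CB, and 44.99% to 45.79% in WT CC and 41.59% to 42.14% in WT CB. Intragenic peaks over 1 kb from a gene end held less in CC, as members did. They took 33.1% to 33.75% in HET CC and 35.44% to 35.7% in HET CB. In WT they took 32.53% to 32.93% in CC and 35.68% to 35.82% in CB. Peaks over 50 kb from a gene held more in CC, with 5.33% to 5.53% in HET CC and 4.93% to 5.18% in HET CB. In WT they took 5.43% to 5.66% in CC and 5.09% to 5.37% in CB.

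Peak by peak, about as many members opened as closed in CC relative to CB, but the openings were larger, as they were over all peaks. In HET, 6084 members rose and 4918 fell in CC, or 55.8% called, where 30.8% of all peaks rose and 28.1% fell (58.8% called). In WT, 5595 rose and 5141 fell, or 54.4% called, where 30.2% of all peaks rose and 27.7% fell (57.9% called). Each call is an adjusted p below 0.05 in edgeR's quasi-likelihood test, Benjamini-Hochberg adjusted over all 82188 peaks. The median log2 difference over members was 0.047 in HET and 0.012 in WT, beside 0.002 and -0.007 over all peaks. At 2-fold or more, 3100 members rose and 1142 fell in HET, and 3196 rose and 2107 fell in WT. At 4-fold or more the counts were 1455 and 15 in HET, and 1486 and 138 in WT. In HET the 5th and 95th percentiles of the log2 difference were -1.05 and 2.38 over members, beside -1 and 2.39 over all peaks. In WT they were -1.35 and 2.4 over members, beside -1.32 and 2.41 over all peaks. With library totals as the scaling, the WT counts were 5274 higher and 5494 lower, so which direction holds the larger number in WT depends on the scaling.

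The 2 genotypes, whose libraries are separate, can be set side by side. Of members that rose, 4748 did so in both, which is 78.0% of those in HET and 84.9% of those in WT. Of members that fell, 3996 did so in both, 81.3% of those in HET and 77.7% of those in WT, and 4 members were called in opposite directions. Across the 19724 members the log2 differences of HET and WT had a Pearson r of 0.926 and a Spearman rho of 0.892, a description over peaks that share their libraries.

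Members farther from a gene opened more often in CC. In HET, 24.7%, 27.8%, 31.4%, 36.3% and 39.5% of members rose at 1 to 5, 5 to 10, 10 to 20, 20 to 35 and 35 to 50 kb from the nearest span. In WT the same shares were 22.1%, 25.6%, 28.9%, 33.7% and 37.0%. The share that fell moved less, between 23.4% and 27.5% in HET and between 24.3% and 29.3% in WT, highest in the nearest bin in both. Beyond the limit, peaks over 50 kb from any gene rose in 48.6% in HET and 45.3% in WT, and there was no break at either limit. In WT, 43 of 191 members at 1000 to 1100 bp rose and 54 fell, beside 50 and 68 of 216 peaks at 900 to 1000 bp. At 49 to 50 kb 34 of 83 members rose and 19 fell, beside 42 and 30 of 116 peaks at 50 to 51 kb. Of 8612 members upstream of their nearest gene, 2582 rose in HET and 2366 in WT, and of those downstream 30.9% and 28.2% rose.

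**Figure D1:**
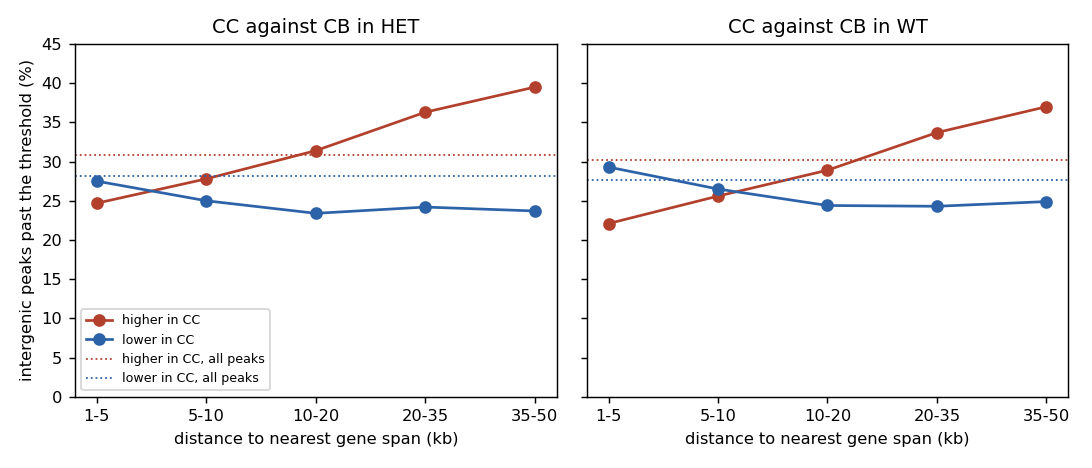
Share of members that rose (red) or fell (blue) in CC against CB, in percent, by distance to the nearest gene span in kb, for HET (left) and WT (right); dotted lines give the same shares over all 82188 peaks. The share that rose climbs to 39.5% in HET and 37.0% in WT at 35 to 50 kb, while the share that fell stays between 23.4% and 29.3%.

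Direction differed with the level of the peak as well. Level here is the log2 of the mean CPM over the 16 libraries, each with equal weight; since it comes from the same values as the change, the split is a description with no test. In the lowest of 4 equal groups of members, 2171 rose and 503 fell in HET and 2009 rose and 542 fell in WT. In the highest group the order turned, with 953 higher and 2102 lower in HET and 1053 higher and 2069 lower in WT. Level and distance are linked, since the median level was 2.64 at 1 to 5 kb and 2.24 at 35 to 50 kb. Within the lowest group, the share that rose in WT was still 31.9% at 1 to 5 kb and 52.3% at 35 to 50 kb, and within the next 23.1% and 40.4%. Within the highest it was 283 of 1417 members and 24.6%. CC libraries were the shallower ones, so depth moves with the comparison; with every library thinned to the smallest total, 3807 members rose and 3269 fell in HET, and 4222 rose and 3941 fell in WT.

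**Figure D2:**
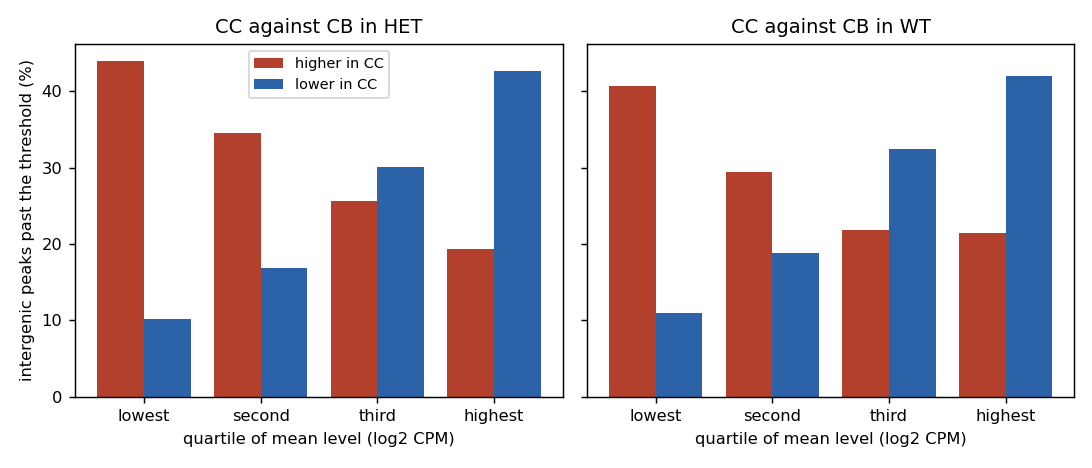
Share of members that rose (red) or fell (blue) in CC against CB, in percent, in each of 4 equal groups of members by level, the log2 of the mean CPM over all 16 libraries with equal weights, for HET (left) and WT (right). In the lowest group 2171 of 4931 rose in HET and 40.7% in WT, and in the highest 42.6% fell in HET and 2069 of 4931 in WT.

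Neighbouring members mostly moved together. Of next neighbours within 1 kb of each other that were both called, 96.8% in HET and 96.3% in WT had the same direction in CC against CB. At 5 to 10 kb the share was 79.9% in both, and over 50 kb 67.4% in HET and 63.8% in WT. Peaks 1 kb apart can share the same open stretch, so the pairs are not independent. With the ends of the nearest gene the shares were lower than between neighbours up to 10 kb apart. Taken here were called members whose gene had called peaks within 1 kb of its ends, all in the same direction. Of these, 67.3% of 5714 members in HET and 66.1% of 5765 in WT had the direction of the gene ends. In WT that share was 70.1% at 1 to 5 kb and 61.4% at 35 to 50 kb. In WT, 64.2% of these called members rose where the gene ends rose, against 29.7% where the gene ends fell.

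**Figure D3:**
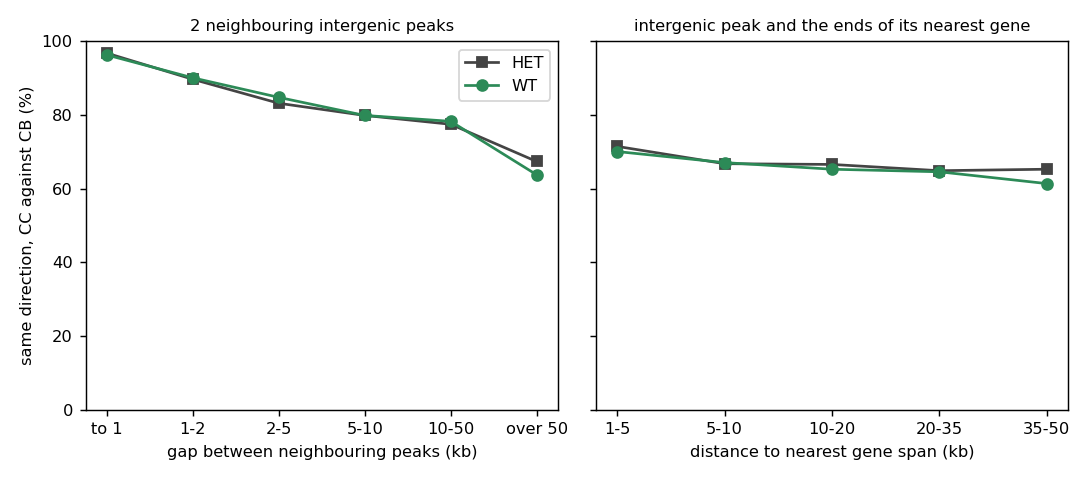
Share of pairs with the same direction in CC against CB, in percent, for HET (squares) and WT (circles); left, 2 neighbouring members by the gap between them in kb, right, a member and the ends of its nearest gene by distance in kb. Agreement between neighbours is 96.8% in HET and 96.3% in WT up to 1 kb, while agreement with gene ends stays between 61.4% and 71.5%.

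Some genes were flanked by many members that rose. Among genes with 5 or more members, those on chromosome 18 not counted, 43 of 1108 had all members higher in WT CC, 33 all lower, and 504 had members in both directions. Irf2bpl, with 17 members, had 10 higher and 1 lower in HET and 13 higher in WT. Its members summed to 351.2, 301.3, 381.2 and 300.6 CPM in HET CC and 369.9, 361.2, 377.4 and 366.1 in WT CC, against 254.4, 251, 251.1 and 253.4 in HET CB and 251.4, 235.7, 252 and 238.9 in WT CB. Every CC library lay above every CB library. Around Btg1, an antiproliferative gene, 12 of 18 members rose in HET, and 10 rose and 1 fell in WT, and around Tmsb4x, which encodes the actin-binding thymosin beta 4, 7 of 12 rose in HET and 10 in WT. Around Ccr1, a chemokine receptor gene of myeloid cells, 10 of 14 rose in both, with 2 lower in HET and 1 in WT, and around Atp6v1g3, a proton pump subunit gene, 10 of 19 rose in both, with 3 lower in HET and 2 in WT.

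The genes with the most members lower in WT CC, ties going to the gene with fewer members, were Cxcr4, Id3, Katnal1, Bcar3 and Trp53i11. Hmgb1 tied with the last of these, with 12 of 20 lower in WT, and 15 lower and 1 higher in HET. Around Cxcr4, the chemokine receptor that holds centroblasts in the dark zone and the gene with the most members (28), 19 fell and 4 rose in HET, and 14 fell and 6 rose in WT. Around Id3, an inhibitor of E proteins, 13 of 17 fell in HET and 12 in WT, and 1 rose in both. Around Katnal1, 16 of 17 fell in HET and 14 in WT, around Bcar3 12 of 16 in both, where 2 rose, and around Trp53i11 13 of 14 in HET and 12 in WT. The Trp53i11 members summed to 118.5, 134, 123.3 and 131.1 CPM in HET CC and 129.8, 124.2, 108.5 and 134.4 in WT CC, against 238.9, 244.6, 237.9 and 239.8 in HET CB and 240.7, 230.7, 237.1 and 239.6 in WT CB. The CC sums lay far below the CB sums, and the genotypes overlapped or nearly so. Outside the naming rule, and picked after their values were seen, Ebf1, a founding transcription factor of the B lineage, had all 7 members lower in WT CC (4 in HET), Zeb2, a transcription factor of late lymphocyte stages, all 7 higher in WT CC (6 in HET), and Arl4c, a small GTPase, all 9 higher in both.

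Gene lists give the same members by what their nearest genes do. Their counts are read beside the shares over all peaks given above, and no list was tested as a set. Around the germinal center program, 17 of 23 genes had members, 95 in all; 7 rose and 59 fell in HET CC, and 7 rose and 64 fell in WT CC. The median log2 difference was -0.40 in HET and -0.74 in WT. The 95 members summed to 1044.5 to 1229.4 CPM in HET CC and 935.2 to 1065.3 in WT CC, against 1582.4 to 1619.6 in HET CB and 1565.2 to 1639.7 in WT CB. Among them, all 3 members around S1pr2, the receptor that keeps B cells in the center, fell in both genotypes. Around Gna13, the G protein subunit through which that receptor signals, 8 of 12 fell in both. Around Pou2af1, a coactivator of octamer factors, 5 of 6 fell in HET and all 6 in WT. Around Elk3, 9 of 16 fell in HET and 11 in WT, and 2 rose in both. Around Bcl6, the master repressor of the germinal center, 2 of 7 fell in HET and 3 in WT.

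The dark zone program had 56 members around 7 of 16 genes, 28 of them around Cxcr4; 12 rose and 30 fell in HET, and 12 rose and 26 fell in WT. Around Foxo1, a transcription factor of the dark zone, 4 of 12 fell and 1 rose in both, while around Rgs1, a brake on chemokine signals, 4 of 6 rose and 1 fell in both. The light zone program was mixed: of 144 members, 38 rose and 36 fell in HET, and 44 rose and 38 fell in WT. Around Ccr7, a chemokine receptor that draws cells to T cell areas, 5 of 10 rose and 2 fell in HET, and 6 rose in WT. Around Cd83, an activation marker, 3 of 16 rose in HET, and in WT 6 fell and 1 rose.

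Members around memory and naive B cell genes opened more often than they closed. Of 124, 51 rose and 30 fell in HET, and 56 rose and 24 fell in WT, with a median log2 difference of 0.21 in HET and 0.26 in WT. They summed to 1224.5 to 1336.7 CPM in HET CC and 1334.1 to 1450.5 in WT CC, against 1202.6 to 1216.5 in HET CB and 1234.5 to 1242.4 in WT CB. All 4 members around Klf3, a Kruppel-like repressor, rose in both genotypes. Around S1pr1, the receptor for exit from lymphoid tissue, 8 of 19 rose and 4 fell in HET, and 10 rose and 1 fell in WT. Around Satb1, a chromatin organizer, 5 of 6 rose in HET and all 6 in WT. Bach2, a repressor of plasma cell fate, went the other way, with 7 of 13 lower and 1 higher in HET and 8 lower and 1 higher in WT.

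The plasma cell program had 16 higher and 27 lower of 60 members in HET, and 15 higher and 28 lower in WT, and B cell receptor signaling 12 higher and 42 lower of 103 in HET, and 16 higher and 44 lower in WT. Prdm1, the plasma cell regulator, had 2 of 4 members higher in both, while Xbp1, the secretory regulator, had 5 of 7 lower in both, with 1 higher in HET. Members near markers of other cells were called higher more often than lower in each of 4 lists. Of 38 members around T cell genes 21 rose and 7 fell in HET, and 19 rose and 7 fell in WT; the sums ran from 201.1 to 223.9 CPM in HET CC and 219.5 to 264.4 in WT CC, against 173.8 to 178.3 in HET CB and 180.8 to 189 in WT CB. In WT, NK cell genes had 13 of 28 members higher with 3 lower, myeloid genes 12 of 30 with 6 lower, and stromal and endothelial genes 10 of 20 with 2 lower. In HET the counts were 14 higher and 4 lower for NK cell genes, 13 and 4 for myeloid genes and 7 higher for stromal and endothelial genes. NK gene members summed to 236.1 to 245 CPM in HET CC and 241 to 289.5 in WT CC, against 208.2 to 212.6 in HET CB and 203.9 to 214.1 in WT CB; the myeloid sums were 332.1 to 372.2 and 343 to 356.3 in HET CC and WT CC, against 305.7 to 310.3 and 307.9 to 314.9 in HET CB and WT CB, and the stromal and endothelial sums 66.9 to 84 and 76.1 to 90, against 55.6 to 62.2 and 54.8 to 60.1. The part of T cells, NK cells or other cells in the CC libraries was not tested.

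**Figure D4:**
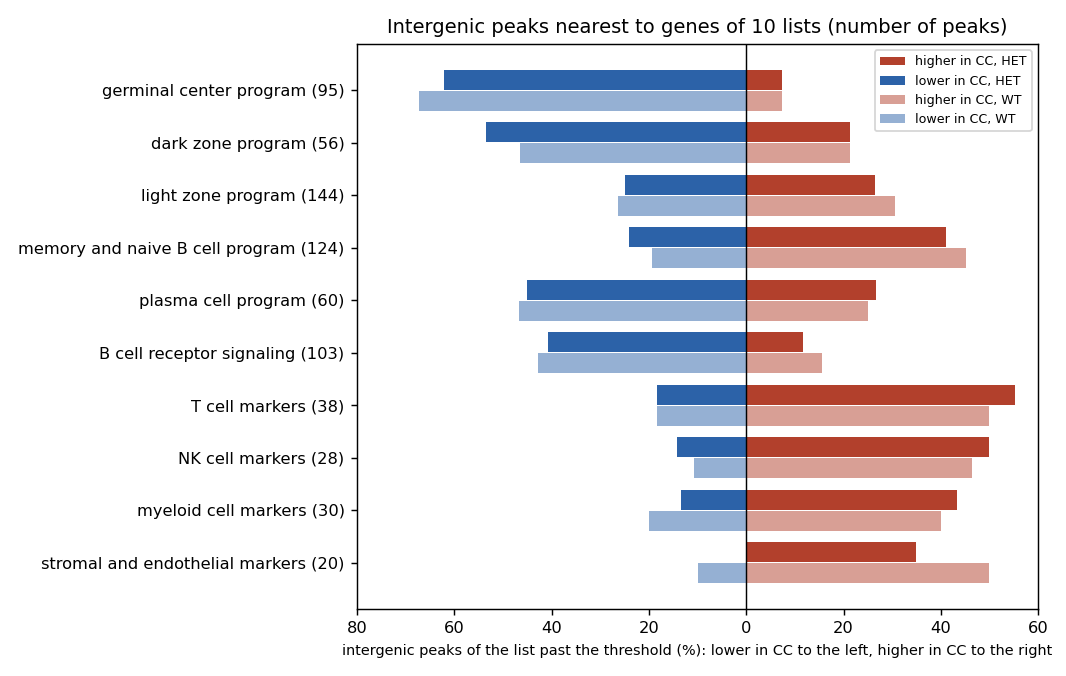
Share of the members nearest to the genes of each list that rose in CC (right, red) or fell (left, blue), in percent, with HET above in full colour and WT below it in pale colour; the number of members follows each name. The germinal center program lies furthest to the left, with 59 of 95 members lower in HET and 64 in WT, and the marker lists of other cells lie to the right.

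Single members show the size of these differences. The member 29407 bp downstream of Prss2 (chr6:41554236-41554736, mm10) opened most among the members that the naming rule admits: those called, above the median level of members, and with CC and CB libraries that do not overlap. Prss2 is a trypsin gene, and in the mouse the trypsin genes lie beside the segments of the T cell receptor beta chain. It had 23.9, 18.7, 25.1 and 14.0 CPM in HET CC and 28.1, 36.2, 32.7 and 29.3 in WT CC, against 1.89, 1.87, 1.85 and 0.953 in HET CB and 3.04, 2.35, 3.48 and 1.83 in WT CB. CC and CB did not overlap, as the rule asks, and HET lay below WT in CC. The log2 difference of CC and CB was 3.63 ± 0.182 (SE) in HET (edgeR adjusted p = 6.8e-24) and 3.55 ± 0.18 in WT (edgeR adjusted p = 1.97e-23). All 7 members around Prss2 rose in both genotypes.

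The member 3076 bp upstream of Plaur, the urokinase receptor gene (chr7:24457611-24458111), had 21.3, 17.3, 26.1 and 19.6 CPM in HET CC and 28.6, 25.3, 22.3 and 29.3 in WT CC, against 3.12, 2.21, 3.49 and 2.57 in HET CB and 4.1, 3.61, 3.58 and 3.77 in WT CB. The groups of CC and CB were again far apart, by 2.88 ± 0.145 in HET and 2.81 ± 0.154 in WT on the log2 scale. Members near Lilr4b (24662 bp), an inhibitory receptor gene, near Etv1 (1129 bp), an ETS factor gene, and near Os9 (15522 bp), a lectin of the endoplasmic reticulum, opened by 2.97, 2.65 and 2.40 in HET and 2.74, 2.73 and 2.70 in WT. The member 36533 bp from S1pr1 (chr3:115673650-115674150) had 17.0, 11.7, 12.6 and 10.1 CPM in HET CC and 24.2, 21.5, 20.9 and 17.2 in WT CC, against 5.61, 5.18, 6.16 and 5.5 in HET CB and 6.71, 7.06, 6.12 and 7.04 in WT CB. Here too every CC library lay above every CB library of its genotype, with a log2 difference of 1.19 ± 0.142 in HET and 1.64 ± 0.146 in WT. The member 16012 bp from Ccr7 rose by 0.97 ± 0.122 in HET and 1.35 ± 0.133 in WT.

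Among members the rule admits, the one 44328 bp downstream of Gpatch2 (chr1:187415723-187416223) closed most in WT CC. It had 3.78, 6.33, 3.02 and 5.74 CPM in HET CC and 1.39, 1.77, 1.97 and 1.09 in WT CC, against 14.2, 13.1, 14.0 and 14.0 in HET CB and 11.8, 16.5, 13.5 and 14.7 in WT CB. All CC libraries lay below all CB libraries, which within WT is what the rule asks. In WT CC a library held 4 to 7 counts there. The log2 difference was -1.50 ± 0.161 in HET and -3.18 ± 0.26 in WT. Members near Capn12 (1790 bp), Fig4 (4026 bp), Lrpprc (2196 bp), which encodes a mitochondrial RNA-binding protein, and Tmem184b (3345 bp) closed by -1.58, -1.59, -0.87 and -1.99 in HET and -2.86, -2.72, -2.58 and -2.56 in WT. A WT CC library held 0 to 6, 4 to 7, 2 to 6 and 8 to 22 counts at these members, so the sizes in WT are imprecise. In HET the admitted members that fell most lay near Prps2, H2al1j, Dars, Fndc3a and Grip1, with log2 differences of -2.39, -2.10, -2.10, -2.06 and -2.05 in HET and -1.82, -2.39, -1.89, -1.48 and -2.22 in WT. A HET CC library held 6 to 17, 8 to 14, 18 to 39, 4 to 18 and 3 to 13 counts there.

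In the germinal center program, the member 4314 bp downstream of Gna13 (chr11:109405433-109405933) had 7.91, 9.37, 6.98 and 9.31 CPM in HET CC and 6.67, 3.53, 3.95 and 4.38 in WT CC, against 27.5, 23.8, 26.3 and 24.1 in HET CB and 24.9, 27.5, 23.1 and 27.1 in WT CB. CC lay far below CB, and every HET CC library lay above every WT CC library. The log2 difference of CC and CB was -1.58 ± 0.12 in HET and -2.46 ± 0.167 in WT. The member 4778 bp downstream of Cxcr4 fell by -1.22 ± 0.0966 in HET and -1.62 ± 0.124 in WT, and the one 6961 bp upstream of Jchain, the joining chain of secreted antibodies, by -1.27 ± 0.106 in HET and -1.58 ± 0.132 in WT. Of the plasma cell program, the member 18214 bp downstream of Herpud1, a gene of the endoplasmic reticulum stress response, rose by 3.00 in HET and 2.81 in WT on the log2 scale. Among the 7 members around Herpud1, 3 rose and 3 fell in HET, and 3 rose and 4 fell in WT. Of B cell receptor signaling, the member 17285 bp upstream of Plcg2, the phospholipase of that pathway, had -0.85 in HET and -1.35 in WT. Of the light zone program, the member 15476 bp downstream of Nfkbia, the inhibitor of NF-kappaB, rose by 2.72 in HET and 2.87 in WT, and that 10159 bp downstream of Tnfaip3, a brake on the same pathway, had -0.89 in HET and -1.42 in WT. The 9 members around Nfkbia were mixed: 1 rose and 3 fell in HET, and 3 rose and 2 fell in WT. Of the T cell and NK cell lists, the members near Tcf7 (30828 bp), Cd5 (8878 bp), Klrk1 (1773 bp) and Gzmb (34590 bp), genes of T cells and cytotoxic cells, rose by 2.83, 2.87, 3.04 and 3.93 in HET and 2.62, 2.43, 2.92 and 3.33 in WT. Other genes of these lists went the other way or were mixed. The sole member around Cd4 fell in both genotypes, as did 3 of 5 around Il2ra, where 0 rose. Around Klrb1c 3 of 12 rose and 4 fell in HET, and 5 rose and 3 fell in WT.

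**Figure D5:**
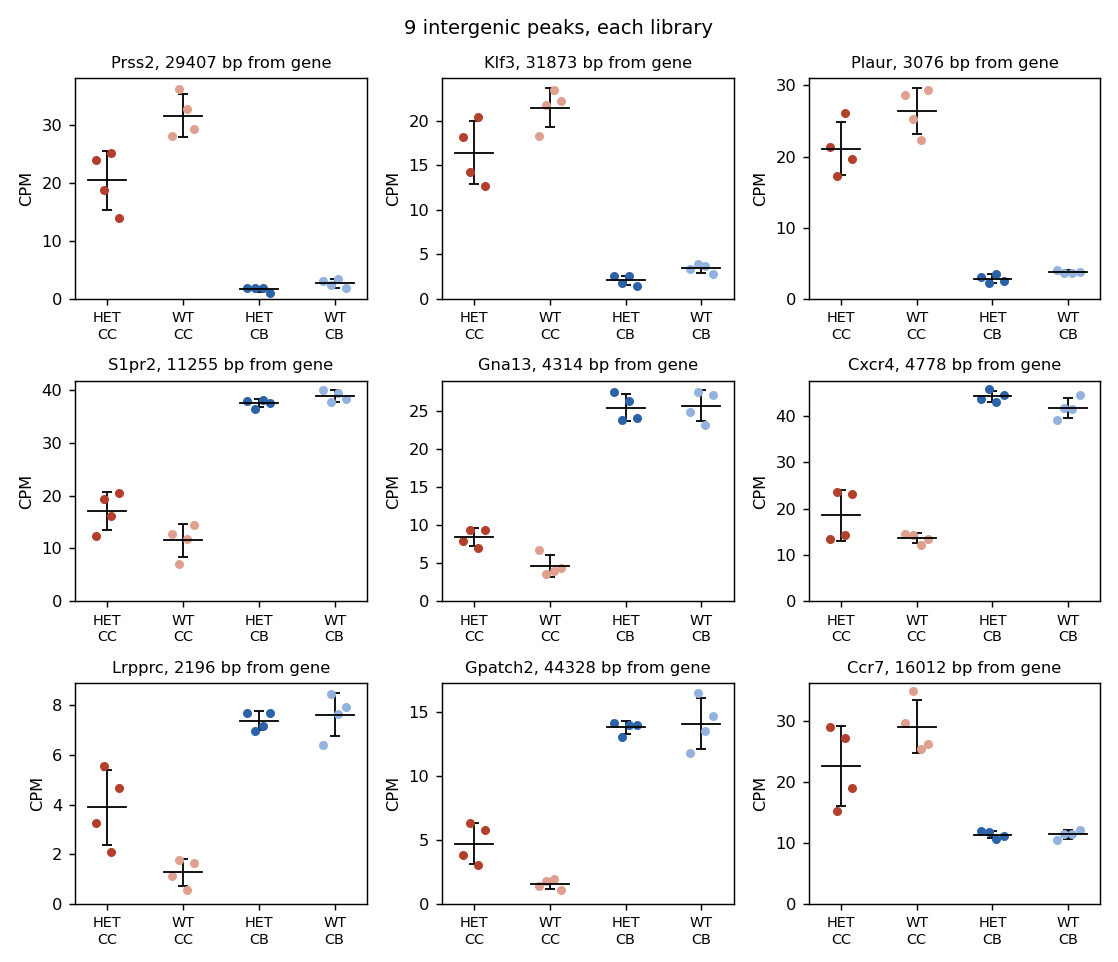
CPM of 9 members in each of the 16 libraries, with the mean and SD of each group of 4 (bar and whiskers); each panel names the nearest gene and the distance in bp. CC lies above CB near Prss2, Klf3, Plaur and Ccr7 and below it near S1pr2, Gna13, Cxcr4, Lrpprc and Gpatch2.

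Few members differed between HET and WT. In HET CC against WT CC, 219 members rose and 138 fell, 1.81% of members, where 1.08% of all peaks rose and 0.979% fell (2.06% called). The median log2 difference over members was 0.015, beside -0.002 over all peaks. Of the members called, 73 rose and 22 fell by 2-fold or more. Of those called, 66.2% were higher in HET at 1 to 5 kb from a gene, 67.6% at 5 to 10 kb and 51.2% at 35 to 50 kb; the difference between these shares was not tested. The share was 25.6% among peaks within 1 kb of a gene end and 65.9% among intragenic peaks over 1 kb from a gene end. It was 44.6% among peaks over 50 kb from a gene, and 52.5% over all peaks. The balance rests on the scaling: with library totals 284 rose and 85 fell (77.0% of called members higher), and with offsets that follow the peak level 159 rose and 153 fell, beside 61.3% in the fit used here. When only the 8 CC libraries entered the fit, 16 rose and 23 fell. Single libraries also moved the counts: without HET CC replicate 2 there were 55 higher and 24 lower, without HET CC replicate 4 53 and 26, without WT CC replicate 2 79 and 55, without HET CC replicate 1 351 and 237, and without HET CC replicate 3 378 and 257. The CB libraries also fall into 2 sets that cross the genotypes, read from the first principal component of their deviations from their group means after the data were seen. Set 1 holds HET replicates 1 and 3 with WT replicates 2 and 4, and set 2 the others. A CC library was given the set of its number, so the split in CC rests on the CB libraries. Between HET CC and WT CC the sets showed only in part. Deviations of HET CC replicate 3 had a correlation of 0.034 with WT CC replicate 2 but -0.012 with WT CC replicate 4, all of set 1. HET CC replicate 2 and WT CC replicate 4, from different sets, had 0.019. In the 8 libraries of set 1, 2 in each group, edgeR called 0 members higher and 0 lower in HET CC against WT CC (1101 and 942 at unadjusted p below 0.05), and in those of set 2 356 and 249. With the set as a term in the fit of all libraries, 242 rose and 170 fell. DESeq2 was not run within the sets, and what the sets stand for is not given by the labels. The 4 deeper HET CC libraries and the 4 shallower WT CC libraries differ in depth as well as in genotype.

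By gene list, 10 of 95 members around the germinal center program rose in HET CC, 5 of 56 around the dark zone program, and 5 of 60 around the plasma cell program, where 1 fell. Of the light zone program 3 of 144 rose and 4 fell, and of the memory and naive program 4 of 124 fell. Over all peaks 1.08% rose and 0.979% fell in this comparison, and no list was tested against these shares. All 3 members around S1pr2 rose in HET CC; for the one 11255 bp from the gene, 0.58 higher (edgeR adjusted p = 0.0387), the call was lost without any of 5 single CC libraries. They summed to 38, 50.8, 40.2 and 54.6 CPM in HET CC and 29.2, 20.6, 28.8 and 40 in WT CC, against 90.8, 92.6, 95.5 and 93.7 in HET CB and 103.5, 94.8, 100.4 and 98.5 in WT CB. The sums of HET CC and WT CC overlapped at 1 library, and all CC sums lay far below those of CB. Outside the naming rule, Myrfl, Swap70 and Pip4k2a were picked for their numbers of members called higher in HET CC. Of 7 members around Myrfl 4 rose in HET CC. The 7 members summed to 93.9, 121.2, 83.3 and 115.8 CPM in HET CC and 66.7, 63.6, 70.7 and 78.3 in WT CC, against 207.6, 205.8, 210.9 and 198 in HET CB and 190.5, 202.4, 196.4 and 200.7 in WT CB. Here the 2 CC groups did not overlap, but the gene was picked by calls on these same values. Around Swap70, a regulator of actin in B cells, 3 of 14 rose, and around Pip4k2a, a lipid kinase gene, 3 of 16. This comparison and that of CC and CB in WT both use the WT CC libraries, so their values stand side by side and are not read against each other.

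Of the members the rule admits, those near Lrpprc, Gpatch2, Sema7a, Socs2 and Ssbp3 rose most in HET CC. The last holds an lncRNA start and is given with those. A WT CC library held few counts at them, so the sizes are imprecise: 2 to 6 near Lrpprc, 4 to 7 near Gpatch2, 7 to 14 near Sema7a, 2 to 12 near Socs2 and 2 to 10 near Ssbp3. The member near Gpatch2, whose values are given above, was 1.65 ± 0.348 higher on the log2 scale (edgeR adjusted p = 0.00786), and that near Lrpprc 1.66 ± 0.382 higher (edgeR adjusted p = 0.0137). The member 10722 bp downstream of Sema7a, a membrane-bound semaphorin (chr9:57973337-57973837), had 9.12, 6.99, 6.98 and 9.93 CPM in HET CC and 3.89, 2.06, 3.66 and 3.28 in WT CC, against 9.83, 11.7, 10.7 and 10.9 in HET CB and 11.6, 11.5, 10.7 and 11.8 in WT CB. WT CC stood below the other 3 groups, and that it did not overlap HET CC is what the rule asks. The difference was 1.35 ± 0.245 (edgeR adjusted p = 0.00279). Near Socs2, a suppressor of cytokine signaling, it was 1.32 ± 0.36 (edgeR adjusted p = 0.0378), and near Foxo1 (49249 bp) 1.00 ± 0.202 (edgeR adjusted p = 0.00562). Of these, the Sema7a call stood in every alternative read for single members. That near Foxo1 stood in every one but the 2-fold minimum, under which its value lay just short. The fits within the sets of libraries were not read for single members, but set 1 called 0 members higher, so neither call stood there. The calls were lost near Gpatch2 without HET CC replicate 2 (edgeR adjusted p = 0.0536) and near Lrpprc without HET CC replicate 2 (edgeR adjusted p = 0.0822) or 4 (edgeR adjusted p = 0.052). Near Socs2 the call was lost without any of 5 CC libraries (HET CC replicates 2 and 4 and WT CC replicates 1, 2 and 3), with edgeR adjusted p from 0.0586 to 0.138.

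The admitted members that fell most lay near Sipa1l1, Akap13, Tfpi, P2ry10 and Fam111a. The member 31732 bp upstream of Fam111a (chr19:12541528-12542028) had 19.1, 15.4, 14.0 and 12.4 CPM in HET CC and 32.0, 30.9, 20.9 and 23.0 in WT CC, against 7.07, 5.56, 6.84 and 5.06 in HET CB and 7.37, 7.94, 7.98 and 6.65 in WT CB. HET CC lay below WT CC by -0.81 ± 0.156 (edgeR adjusted p = 0.00401), with no overlap, as the rule asks. The member 5268 bp upstream of Tfpi, an inhibitor of blood clotting (chr2:84481793-84482293), fell by -0.91 ± 0.183 (edgeR adjusted p = 0.0052), a call lost without HET CC replicate 2 (edgeR adjusted p = 0.0502). The members near Sipa1l1 (-0.98 ± 0.241), Akap13 (-0.93 ± 0.265) and P2ry10 (-0.89 ± 0.206) each lost the call without at least 2 single libraries. In the memory and naive list the member 1023 bp upstream of Vim, an intermediate filament gene, was -0.68 ± 0.147 lower (edgeR adjusted p = 0.00896) and the member near S1pr1 -0.71 ± 0.159 lower (edgeR adjusted p = 0.0117). The Vim call was lost without HET CC replicate 4 (edgeR adjusted p = 0.0518), and the S1pr1 call without HET CC replicate 2 (edgeR adjusted p = 0.0547) or 4 (edgeR adjusted p = 0.0634). Around Fli1, an ETS factor gene picked for its number of members called lower in HET CC, 2 of 3 members fell there.

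In HET CB against WT CB, 1 member rose and 15 fell, 0.0811% of members, where 0.00243% of all peaks rose and 0.127% fell (0.129% called). The counts move with the method: when only the 8 CB libraries entered the fit, 55 rose and 158 fell, DESeq2 called 18 higher and 137 lower, and with counts thinned to the smallest library edgeR called 0 and 0 (218 higher and 383 lower at unadjusted p below 0.05). Within set 1 of the libraries 2 rose and 4 fell, and within set 2 8 and 41. The member 13302 bp upstream of Tent5a, a poly(A) polymerase gene (chr9:85340202-85340702), had 2.51, 2.84, 3.44 and 2.35 CPM in HET CB and 3.83, 5.24, 4.52 and 5.41 in WT CB, and 20.6, 15.4, 20.6 and 18.8 in HET CC and 32.0, 30.9, 19.7 and 38 in WT CC. HET lay below WT in CB by -0.76 ± 0.145 (edgeR adjusted p = 0.00971), with no overlap, as the naming rule asks. In CC the member differed by -0.69 ± 0.157 (edgeR adjusted p = 0.0127), with 1 library overlapping. It was 1 of 2 members called in the same direction in both cell types, the other being the member 8998 bp upstream of Rasa3, a Ras inhibitor gene, with -0.70 ± 0.142 in CB and -0.63 ± 0.155 in CC. In CC the Tent5a call was lost without HET CC replicate 2 (edgeR adjusted p = 0.0746) or WT CC replicate 4 (edgeR adjusted p = 0.0701), and the Rasa3 call without any of 4 single libraries. Near Klf3 (31873 bp) the difference in CB was -0.74 ± 0.163, near Zcchc2 -0.61 ± 0.137 and near 2310061N02Rik -0.53 ± 0.106. The sole increase was near Zfp64 (25419 bp), 0.68 ± 0.141. Each of these 6 calls in CB was lost without some single CB library, and without HET CB replicate 4 the counts were 1 higher and 2 lower, without HET CB replicate 2 1 and 3, without HET CB replicate 3 8 lower, and without a WT CB library between 5 and 7 lower.

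The test of the difference between the effects in CC and in CB called 25 members higher and 2 lower, 0.137% of members, where 0.128% of all peaks were higher and 0.0316% lower (0.159% called). The largest among those the naming rule admits was near Gpatch2, 1.68 ± 0.364 (edgeR adjusted p = 0.0303), followed by Syt8, a synaptotagmin gene, 1.54 ± 0.353 (edgeR adjusted p = 0.0428), Sema7a 1.43 ± 0.266 (edgeR adjusted p = 0.0146), Cdkn1c, a cyclin-dependent kinase inhibitor gene, 1.30 ± 0.291 (edgeR adjusted p = 0.0389), and Rmi2, a subunit gene of the BLM helicase complex, 1.25 ± 0.247 (edgeR adjusted p = 0.0181). Members near Foxo1, S1pr2 (3183 bp), Fas (1758 bp), Basp1 (8286 bp) and Ikzf1 (25903 bp) were also among the 25, with 1.07, 0.97, 0.98, 0.76 and 0.97. Lower were the members 3985 bp upstream of P2ry10, -1.10 ± 0.237, and 28010 bp from Plxna1, -0.81 ± 0.189. Near Snap29 (1962 bp) and Rbpj (46140 bp), below the level the rule asks for, the values were 2.54 and 2.03. Each of the calls named here was lost without at least 1 single library, that near Snap29 without HET CC replicate 2 (edgeR adjusted p = 0.0661) and the others without at least 2. With counts thinned to the smallest library edgeR called 0 and 0 (847 higher and 399 lower at unadjusted p below 0.05), while DESeq2 on the full counts called 227 higher and 76 lower. With the replicate number as a block the counts were 13 and 0 (543 lower at unadjusted p below 0.05), or 9 and 0 with the number within genotype (444 lower). Within set 1 of the libraries edgeR called 0 and 0 (1009 higher and 625 lower at unadjusted p below 0.05), and within set 2 108 and 25. Without any 1 library other than WT CC replicate 1 the number higher moved by over 1.5 times, to between 4 (without HET CC replicate 2 or 4) and 96 (without HET CC replicate 1).

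At lncRNA starts, 123 of 386 members rose and 93 fell in HET CC (31.9% and 24.1%, beside 30.8% and 28.1% of all peaks), and 133 rose and 91 fell in WT CC (34.5% and 23.6%, beside 30.2% and 27.7%). In HET CC against WT CC, 4 rose and 5 fell, 2.33% of them, near the 2.06% of all peaks. The member that holds the start of Gm52672, 6400 bp upstream of Ssbp3 (chr4:106904820-106905320), had 6.02, 4.22, 4.53 and 6.67 CPM in HET CC and 2.78, 0.589, 2.82 and 2.74 in WT CC, against 13.1, 13.1, 12.7 and 12.3 in HET CB and 13.6, 12.2, 10.2 and 12.8 in WT CB. HET CC lay between WT CC and CB, 1.24 ± 0.31 above WT CC (edgeR adjusted p = 0.0233). That call was lost without HET CC replicate 4 (edgeR adjusted p = 0.0935) or WT CC replicate 2 (edgeR adjusted p = 0.108). At C430042M11Rik, 5477 bp upstream of Haao, HET CC had 11.2, 15.8, 8.68 and 9.16 CPM and WT CC 6.39, 5.59, 8.74 and 4.93, against 26.7, 24.4, 27.3 and 24.2 in HET CB and 23.4, 21.8, 22.0 and 26.4 in WT CB. The CC groups overlapped at 1 library, and the difference was 0.84 ± 0.21 (edgeR adjusted p = 0.0235).

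At Gm33663, near Cdkn1c, HET CC had 8.08, 5.67, 9.25 and 10.2 CPM and WT CC 5.0, 1.77, 2.54 and 4.65, against 6.71, 7.18, 7.24 and 7.8 in HET CB and 8.16, 6.71, 8.23 and 7.43 in WT CB. WT CC alone was low, and HET CC was 1.22 ± 0.262 higher on the log2 scale (edgeR adjusted p = 0.00889). At Gm9875, 13918 bp upstream of Trdmt1, the order was turned: HET CC had 21.0, 17.0, 24.4 and 12.7 CPM and WT CC 27.5, 36.2, 29.6 and 23.8, against 3.97, 2.53, 3.64 and 3.46 in HET CB and 4.33, 5.3, 5.23 and 3.77 in WT CB. Both CC groups lay far above CB, and HET CC was -0.65 ± 0.163 lower than WT CC (edgeR adjusted p = 0.0228). The calls at C430042M11Rik and Gm9875 were each lost without at least 3 single CC libraries, and that at Gm33663 without HET CC replicate 4 (edgeR adjusted p = 0.0507) or WT CC replicate 2 (edgeR adjusted p = 0.0521). Smaller decreases in HET CC stood at Gm2885 near Ezr (-0.37), Gm32249 near Ccr7 (-0.35), Snhg15 near Myo1g (-0.34) and Gm31125 near Acot11 (-0.48). At Gm41897, near Las1l, HET CC held 2 to 11 counts a library and WT CC 0 to 1, too few for a fold.

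In the printed windows, C430042M11Rik holds a KLF site on the other strand, Gm33663 an AP-1 site and an E-box, Gm9875 an AP-1 site, and Gm52672 none of those searched. The motifs, searched on both strands, were GAGGAAGT (PU.1), ATTTGCAT (octamer), TGTGGTT (RUNX), CAGCTG (E-box), TGANTCA (AP-1), CCACACCC (KLF) and CCGGAAGT (ETS); a base that belongs to more than 1 match is counted for each. The octamer stood in 4.15% of the 386 windows and in 1.74% of all 32817 RefSeq windows of the same length, the PU.1 site in 6.48% and 3.20%, and the RUNX site in 8.81% and 5.27%. The E-box stood in 17.1% and 16.3%, the AP-1 site in 8.55% and 7.81%, the KLF site in 4.40% and 3.56%, and the ETS site in 3.37% and 3.89%. Among windows of members that rose in WT CC 3 of 133 held the octamer and 16 the RUNX site, and among those that fell 7 of 91 and 6. The windows were similar in base composition, with a median of 51.3% G and C beside 52.7% in all windows. These are matches of letters, and 247 of the 386 windows lay wholly inside their peak.

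Of the 8 members with microRNA hairpins, that with miR-155 (4219 bp downstream of Mrpl39, chr16:84713812-84714312) had 16.3, 17.7, 19.6 and 19.9 CPM in HET CC and 18.6, 24.4, 26.5 and 15.9 in WT CC, against 24.0, 23.5, 24.6 and 25.3 in HET CB and 21.9, 24.4, 23.6 and 25.4 in WT CB. HET CC lay below HET CB with no overlap, by -0.41 ± 0.1 (edgeR adjusted p = 0.00041), while WT CC overlapped WT CB, with -0.16 ± 0.115 (edgeR adjusted p = 0.231). The difference between the genotypes in this change was -0.25 ± 0.154 (edgeR adjusted p = 0.56). The member with miR-23a, miR-27a and miR-24 (2143 bp downstream of Zswim4) had 5.5, 5.41, 2.83 and 3.72 CPM in HET CC and 2.5, 2.94, 5.36 and 3.28 in WT CC, against 5.94, 7.9, 7.3 and 7.2 in HET CB and 6.16, 5.36, 6.3 and 6.21 in WT CB. It fell by -0.68 ± 0.185 in HET (edgeR adjusted p = 0.00142) and -0.77 ± 0.242 in WT (edgeR adjusted p = 0.00525). The member with miR-7671, near Irf1, a transcription factor of interferon responses, rose by 0.58 ± 0.084 in HET and 0.79 ± 0.0936 in WT, and that with miR-713 fell by -0.28 in HET and -0.73 in WT. The members with miR-5103, miR-3093, miR-3965 and miR-212 did not pass the threshold in either genotype, with log2 differences of 0.21, 0.53, 0.42 and -0.15 in HET and 0.30, -0.08, 0.48 and -0.05 in WT. Between HET and WT, the log2 differences of the 8 members ran from -0.25 to 0.45 in CC, where the smallest edgeR adjusted p was 0.166, and from -0.16 to 0.24 in CB, where it was 0.678.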

How the data were processed

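The authors deposited 1 table of raw counts per peak for 16 Omni-ATAC libraries, whole numbers with a different total in each library; FastQC, BWA, deepTools, R 4.2.1 and mm10 are named in the submitters' processing notes without their roles, and the sources used here do not give how peaks were called, what was counted or whether duplicates were removed. Peak middles were placed against protein-coding gene spans of RefSeq on GRCm38.p6.

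All 82188 peaks were fitted together in edgeR 4.0.16 (R 4.3.3) with TMM scaling, 1 coefficient for each of 4 groups, robust quasi-likelihood tests and Benjamini-Hochberg adjustment over all peaks; filterByExpr removed 0 peaks. The fit was also run on simulated counts, with the same spread for CC and CB and with changes only at peaks above the median level. That run therefore cannot show how the fit behaves with noisier CC libraries or at low peaks. CPM and shares of counts are computed from the deposited counts. Values after ± are SE for log2 differences. In all, 5 comparisons were made: CC against CB in HET and in WT, HET against WT in CC and in CB, and the difference of the last pair. A peak was named by its nearest gene: per comparison, up to 5 called members in each direction with the largest log2 differences, above the members' median of edgeR's average log2 CPM, which leans to the deeper CB libraries, and with groups that do not overlap (level only for the difference of effects), 1 per gene; up to 3 per gene list by p in WT; the 5 genes with most members higher and lower in WT; and members with a microRNA hairpin or an lncRNA start. Ties in the number of members went to the gene with fewer members, then by name. Others were picked by their calls or after their values were seen, or belong to the fixed lists. Peaks on chromosome 18 are not named, and a few genes are not reported here. Members, lists and tests were chosen with earlier results of these data known.

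Alternatives were other scalings (edgeR's relative log expression factors, library totals, cyclic loess of limma 3.58.1), DESeq2 1.42.0, filters, thinning, fewer libraries, a replicate block, 2 sets of libraries, each library left out, a fold minimum and other distance limits. Depth per group is given with the results; a lower count makes a CC value less precise.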

Additional observations from a re-analysis of the deposited data

Results flagged for a closer look

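Of 320 groups of 4 libraries of the named members, 15 held 1 library far from the other 3 by Dixon's criterion, which chance gives in about 1 in 20 groups. The library that stood apart was low in HET CB near Prss2 (0.953 CPM, next 1.85), Plcg2 (23.3, next 25.8) and Bank1 (5.29, next 6.07), and high in HET CB near Akap13 (8.58, next 7.86), Rhbg (3.08, next 2.31) and Gtf2i (1.85, next 1.63). In HET CC it was high near Itgam (4.34 CPM, next 3.1) and Ccdc115 (12.8, next 9.12) and low near Ezr (43.0, next 53.8). In WT CC it was low near Ssbp3 (0.589 CPM, next 2.74), and near Las1l 1 library had 0.274 CPM and the other 3 none. In WT CB it was high near Nfkbia (1.47 CPM, next 0.845) and Jchain (31.8, next 29.3) and low near Gzmb (0.502, next 1.07) and Zswim4 (5.36, next 6.16).

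The effect of the genotype differed between CC and CB, by the test of that difference in edgeR, at 8 named members. The log2 difference of effects was 1.68 near Gpatch2, 1.54 near Syt8, 1.43 near Sema7a, 1.30 near Cdkn1c, 1.25 near Rmi2 and 1.07 near Foxo1, and -1.10 near P2ry10 and -0.81 near Plxna1. Each of these 8 calls was lost without at least 2 single libraries.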

How the results depend on the processing

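The numbers of members called between CC and CB stayed within 1.5 times under the alternatives run, except with a count, fold or distance limit or with thinning, while the numbers of HET effects moved under more of them. The limits leave fewer members or ask for a larger effect; otherwise the cause was not tested. With at least 50 counts on average over the WT CC libraries, 2954 members were left, of which 836 rose and 908 fell in HET CC against CB, 855 and 969 in WT, 61 and 36 in HET CC against WT CC, 0 and 6 in HET CB against WT CB, and 7 and 0 in the difference of effects. With counts thinned to the smallest library, 3807 rose and 3269 fell in HET, 113 and 72 in HET CC against WT CC, and 0 and 0 both in CB and in the difference of effects. With a 2-fold minimum the counts were 3100 and 1142 in HET, 3196 and 2107 in WT, 73 and 22 in HET CC against WT CC, 0 and 4 in CB, and 11 and 1 in the difference. With a limit of 20 kb, 3844 rose in HET and 3508 in WT, 86 fell in HET CC against WT CC, and the counts were 0 and 7 in CB and 16 and 1 in the difference. With only the compared libraries they were 16 and 23 in HET CC against WT CC, and 55 and 158 in CB. DESeq2 gave 541 and 491 in HET CC against WT CC, 18 and 137 in CB, and 227 and 76 in the difference. With library totals 85 fell in HET CC against WT CC and the difference had 61 higher, and with spans of all RefSeq genes CB had 0 and 27. The 0 counts of edgeR stand beside unadjusted p below 0.05, in CB for 50 members higher with at least 50 counts, 218 higher and 383 lower when thinned, 280 higher with the 2-fold minimum, 206 higher to 20 kb and 234 higher with all spans, and in the difference for 110 lower with at least 50 counts, and 847 higher and 399 lower when thinned. The share of counts in members became 14.94% in HET CC, 14.68% in WT CC, 15.29% in HET CB and 15.49% in WT CB from 2 kb on, 11.73%, 11.44%, 12.15% and 12.27% up to 20 kb, and 17.2% in WT CB without X and Y. No scaling moved the median of all peaks by as much as 0.1 on the log2 scale.

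Replicate numbers are shared between groups, but correlations between the deviations of libraries of the same number did not reach 0.1: they were 0.032 to 0.073 between HET CC and HET CB, 0.041 to 0.045 between WT CC and WT CB, -0.024 to 0.009 between HET CC and WT CC and -0.14 to -0.113 between HET CB and WT CB, and not every library correlated best with its own number. The pattern is of 2 sets: odd numbers went with odd and even with even between CC and CB of a genotype, and in CB HET 1 and 3 correlated with WT 2 and 4 (0.112 to 0.136) and HET 2 and 4 with WT 1 and 3 (0.12 to 0.14). Alternatives chosen after seeing this gave, with the set as a term, 4 and 51 in CB and 48 and 6 in the difference; within set 1 (2 libraries a group) 5062 and 4346 in HET, 4375 and 4034 in WT, 0 and 0 in HET CC against WT CC, 2 and 4 in CB and 0 and 0 in the difference (1009 higher and 625 lower at unadjusted p below 0.05); and within set 2 5008 and 3764 in HET, 4620 and 3999 in WT, 356 and 249 in HET CC against WT CC, 8 and 41 in CB and 108 and 25 in the difference. With the number as a replicate block over all groups, 5844 rose and 4737 fell in HET, 5440 and 5013 in WT, 174 and 93 in HET CC against WT CC, 1 and 7 in CB, and 13 and 0 in the difference (543 lower at unadjusted p below 0.05); with the block within genotype the difference had 9 and 0 (444 lower at unadjusted p below 0.05).

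Leaving out 1 library gave 5593 to 6129 higher and 4489 to 5042 lower in HET, 5253 to 5663 and 4708 to 5191 in WT, 53 to 378 and 24 to 257 in HET CC against WT CC, 0 to 2 and 2 to 18 in CB, and 4 to 96 and 0 to 17 in the difference. The 0 higher in CB had at least 181 members higher, and the 0 lower in the difference at least 542 lower, at unadjusted p below 0.05. The shares ran from 16.51% to 16.57% in HET CC, 16.18% to 16.29% in WT CC, 16.88% to 16.97% in HET CB and 17.12% to 17.17% in WT CB. Of the values for named members, 3005 kept direction and side of the threshold without 1 library, 413 lost the call, 1 gained it and 5 turned; under the other alternatives the numbers were 2103, 237, 2 and 2. The 7 values that turned sign were not called in either fit. For CC against CB in WT these were Rhbg without WT CC replicate 1 (0.14) or 2 (0.07), in a range without 1 library of -0.55 to 0.14, Gtf2i with cyclic loess (-0.33), and Ovca2 with cyclic loess (0.15) or without WT CC replicate 2 (0.00), WT CC replicate 4 or WT CB replicate 1 (0.04 each), in a range of -0.13 to 0.04.

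Depth limits CC most: with 18 to 41 counts at the median member of a CC library, small HET effects there may be missed. Large ones at members with few counts are imprecise.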
